A study of Homo sapiens with 16 samples.

Results

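Integrins and laminins, the receptors and ligands that hold epithelial cells on the basement membrane, were followed in BT474 breast tumours with and without knockdown of SHP2. The members were chosen by gene symbol as the integrin alpha subunits, integrin beta subunits and laminin chains on the array. There were 35 members, comprising 17 alpha subunits, 8 beta subunits and 10 laminin chains, out of 18377 genes in all. ITGA1 shares its probe set with a further gene, PELO, and was not analysed here, nor was LAMA3.

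BT474 is an ERBB2-amplified (HER2-positive) luminal line from a human breast cancer, and SHP2, the product of PTPN11, is a tyrosine phosphatase that relays receptor tyrosine kinase signals to RAS and ERK. All tumours grew from BT474 cells that carried an inducible lentiviral vector, placed in a mammary fat pad of mice without a full immune system. The vector expressed a control hairpin (CTRL miR, 6 tumours), a hairpin against SHP2 (SHP2 miR1, 7 tumours) or another one against SHP2 (SHP2 miR2, 3 tumours). Every group, the controls included, had doxycycline in its water (2 g per L, 30 days) once tumours had formed, and total RNA of each dissected tumour went onto 1 human gene array. The strain and age of the mice, and whether each cell population was a clone or a pool, are not stated by the labels. A single cell line was used, and the labels do not tie tumours to animals, so p-values measure the spread between these tumours. The mouse host retains stroma and vessels and, in most immunodeficient strains, myeloid cells, and a human array reads their RNA only as far as mouse transcripts hybridise to it.

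An integrin is a pair of 1 alpha and 1 beta subunit that spans the membrane, binds the matrix or another cell outside, and joins the actin or keratin skeleton inside through talin, kindlin, plectin and other adaptors. A laminin is a trimer of an alpha, a beta and a gamma chain, and is the main adhesive protein of basement membranes. In mammary epithelium α6β4 anchors cells in hemidesmosomes, α3β1 and α6β1 bind laminin, and α2β1 binds collagen and laminin. The αv pairs bind proteins with an arginine-glycine-aspartate (RGD) site, and some of them release TGF-β from its latent form. Subunits of the β2 and β7 families serve leukocytes.

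Promoters are shown for ITGA6 and LAMB1, which fell with SHP2 miR2, and for ITGB8, which had the largest rise of the 35 members with it. Each is the 250 bases before a RefSeq start site in GRCh38.p14, read 5′ to 3′ on the strand of the gene, and capitals mark matches to the motifs named after the sequences. They lie at chr2:172427086-172427335 on the plus strand for ITGA6, chr7:108003162-108003411 on the minus strand for LAMB1 and chr7:20330650-20330899 on the plus strand for ITGB8.
ITGA6: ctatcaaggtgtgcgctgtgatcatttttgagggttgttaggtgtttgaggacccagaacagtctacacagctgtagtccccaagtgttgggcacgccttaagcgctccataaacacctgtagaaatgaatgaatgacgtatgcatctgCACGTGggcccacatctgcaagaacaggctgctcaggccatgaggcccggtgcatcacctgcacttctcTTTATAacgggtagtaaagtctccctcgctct
LAMB1: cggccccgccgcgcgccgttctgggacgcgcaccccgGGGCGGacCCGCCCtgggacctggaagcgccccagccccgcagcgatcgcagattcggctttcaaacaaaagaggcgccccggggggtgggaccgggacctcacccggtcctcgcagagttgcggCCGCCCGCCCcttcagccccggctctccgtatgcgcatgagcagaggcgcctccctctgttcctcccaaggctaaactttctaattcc
ITGB8: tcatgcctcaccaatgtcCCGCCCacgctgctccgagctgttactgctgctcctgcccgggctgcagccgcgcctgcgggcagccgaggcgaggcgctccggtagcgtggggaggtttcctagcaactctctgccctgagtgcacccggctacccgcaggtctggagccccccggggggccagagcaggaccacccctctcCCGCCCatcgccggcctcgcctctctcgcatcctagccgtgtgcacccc

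A promoter was found for 24 of the 35 members, and 5 motifs were searched on both strands. A member with several start sites was counted where any of its windows held the motif. The percentages are shares of single promoters, so the 24 and the percentages are not counted alike. The MYC and MAX E-box CACGTG stood in the ITGA6 window and in that of no other of the 24, against 6.34% of 35116 promoters of this length. The TATA box TATAAA, present in the ITGA6 window on the opposite strand, was found in 2 of the 24 (ITGA6 and ITGB1) and in 10.7% of promoters. The GC box GGGCGG was found in 13 of the 24, including LAMB1 and ITGB8, and in 42.6% of promoters. ITGA6 has another listed start site, whose window is not shown and holds 3 GC boxes. The AP-1 motif TGANTCA was found in LAMB3 alone of the 24 and in 6.57% of promoters, and the ETS motif CCGGAAGT in ITGB5 alone and in 3.42%. No motif contains another, and a match describes the sequence only.

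The arrays hold log2 signals between 1.54 and 13.63, with array medians of 5.21 to 5.41 and upper quartiles of 6.70 to 7.001. The mean of 11 luminal and HER2 tumour cell markers was between 9.05 and 9.93 on every array, above every upper quartile, as a check of the tumour cells named by the labels. PTPN11 was 8.40 ± 0.16 (SD, n = 6) in the controls, 6.93 ± 0.19 (n = 7) with SHP2 miR1 and 6.46 ± 0.10 (n = 3) with SHP2 miR2, with no overlap between controls and knockdown. It fell by 1.47 ± 0.097 with SHP2 miR1 (limma adjusted p = 5.11e-08) and by 1.94 ± 0.123 with SHP2 miR2 (adjusted p = 6.97e-09), to 36.0% and 26.1% of the control signal. The controls were not alike. IRS4, an insulin receptor substrate, read 7.14 to 8.29 in 4 controls (tumours 1, 3, 4 and 6), which are called apart below, and 2.97 to 3.91 in the remaining 12 tumours. The arrays also fall into 2 sets by 5 noncoding RNAs, set A with controls 1 to 3 and SHP2 miR1 tumours 1 to 4, and set B with the other 9 arrays, among them all SHP2 miR2 tumours. The labels give no batch, so what the sets are is not known. SHP2 miR2 tumours 1 and 3 had the narrowest spread of values over all probe sets, with SDs of 1.89 and 1.89 against 1.95 to 2.07 on the other 14 arrays.

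Which members changed was asked in 4 comparisons, fitted with limma over all 18377 genes, and a member is said to have risen or fallen where its Benjamini-Hochberg adjusted p was below 0.05. Changes are differences of log2 values with their standard errors. With SHP2 miR1 no member rose and 6 of 35 fell (ITGA4, ITGA5, ITGA8, LAMA1, LAMA4 and LAMB2), where 1.38% of all genes rose and 3.38% fell. At an unadjusted p below 0.05, 4 members were higher and 6 lower with SHP2 miR1 by limma. The share of all genes at that level was not counted, so these counts have nothing to be set against. With SHP2 miR2, 8 of 35 rose and 5 fell, against 11.8% and 18.2% of all genes. For both hairpins together, with equal weight on each, 2 rose and 8 fell, against 5.52% and 13.1%. Between the hairpins, 4 members were higher and 5 lower with SHP2 miR1 than with SHP2 miR2, against 14.3% and 8.22%.

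Set beside these shares, the members rose with SHP2 miR2 at 22.9% and fell at 14.3%, and for both hairpins fell at 22.9%. With SHP2 miR1 they fell at 17.1%. The median change of the 35 was 0.07 with SHP2 miR2 and -0.02 with SHP2 miR1, beside 0.02 and 0.02 over all genes. Without control tumours 1, 3, 4 and 6, no member passed with SHP2 miR1 or with both hairpins (0.136% and 0.751% of all genes called in either direction). In those fits 4 and 6 members respectively had an unadjusted p below 0.05 in limma, and the share of all genes at that level was not counted. With SHP2 miR2, ITGA9 then rose and ITGA6 and LAMB1 fell, 3 members in all, where 4.37% of all genes were called. Between the hairpins 14 passed (27.5% of all genes). The fits with 2 controls have fewer samples to draw on.

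The array sets gave a further check. With the set as a block, 13 members passed for both hairpins, 7 with SHP2 miR1, 11 with SHP2 miR2 and 7 between the hairpins, where 22.3%, 6.67%, 24.9% and 13.7% of all genes were called. Within set B alone 1 member passed for both hairpins (ITGB8), 5 with SHP2 miR2 (ITGA9, ITGB8, LAMA2, ITGA6 and LAMB1) and 1 between the hairpins (ITGA6), where 1.67%, 13.9% and 5.29% of all genes were called. No member passed with SHP2 miR1 in set B (0.00544% of all genes) or in set A (0.0544%). With the mean of macrophage, lymphocyte, fibroblast and endothelial markers (host cell markers) as a covariate 1 member passed for both hairpins, 5 with SHP2 miR1, 2 with SHP2 miR2 and 2 between the hairpins, where 2.05%, 5.83%, 2.52% and 3.60% of all genes were called. The member for both hairpins was LAMC1, and those with SHP2 miR2 were LAMC1 and ITGA6. LAMC1 was higher and had not passed without the covariate, so no call for both hairpins was kept, and only that of ITGA6 with SHP2 miR2. ITGA6, LAMB1 and ITGA9 were thus the members called with SHP2 miR2 over all arrays, without the apart controls and within set B, and of these ITGA6 also passed with the host covariate.

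The single tumours were also read without a model. All SHP2 miR2 tumours lay above all controls for ITGA9 and LAMA2, 2 of the 35, as for 6.55% of all genes, and below them for ITGA2, ITGA6, ITGB5 and LAMB1, 4 of the 35, as for 11.2%. They lay above the other 13 tumours, SHP2 miR1 included, for ITGA9 and LAMA2 (3.29% of all genes) and below them for ITGA6 and ITGB5 (8.10%). No member had all SHP2 miR1 tumours above all controls, as for 0.745% of all genes.

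**Figure D1:**
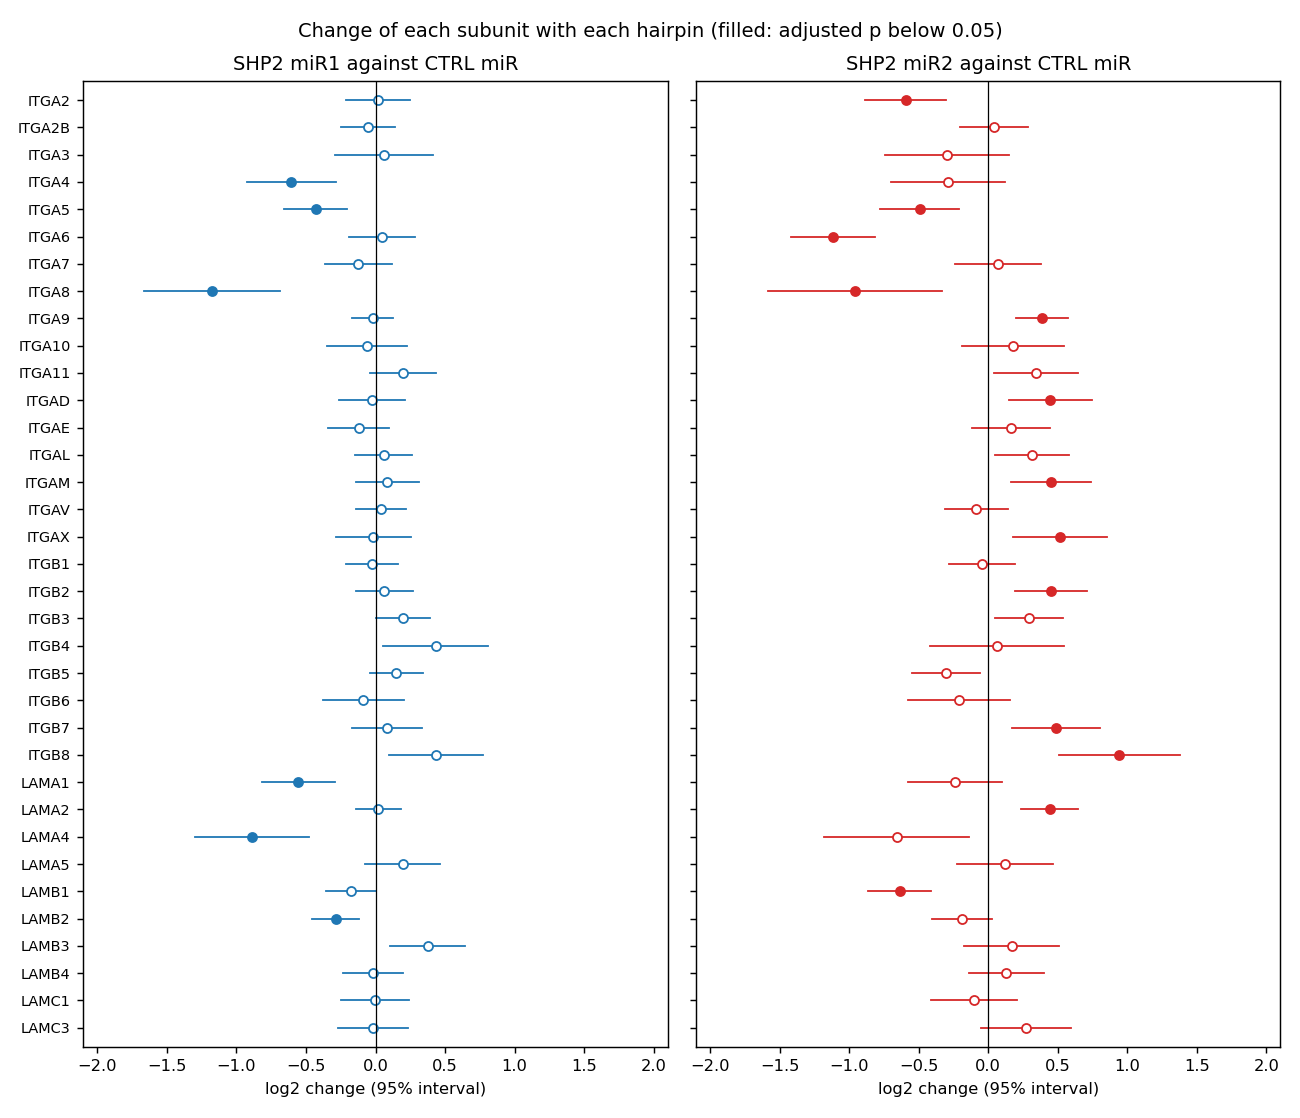
Change of each of the 35 members against the controls on the log2 scale, with 95% intervals from limma, for SHP2 miR1 and SHP2 miR2, with filled points for an adjusted p below 0.05. ITGA6 lies farthest below 0 with SHP2 miR2 at -1.12 and at 0.05 with SHP2 miR1, whereas ITGA8 lies at -1.18 with SHP2 miR1 and -0.96 with SHP2 miR2.

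ITGA6 encodes the alpha subunit of the laminin receptors α6β1 and α6β4. Its log2 signal in the controls ran from 6.79 through a median of 6.93 to 6.99, and in the SHP2 miR1 tumours from 6.76 through 6.98 to 7.13. The 3 SHP2 miR2 tumours read 5.54, 6.34 and 5.50, all below the other 13 tumours, tumour 2 being the nearest to them. ITGA6 fell by 1.12 ± 0.144 with SHP2 miR2 (95% interval -1.42 to -0.81, limma adjusted p = 3.31e-05), which is 2.17-fold lower, and its change with SHP2 miR1 was 0.05 (adjusted p = 0.891). The hairpins differed by 1.16 ± 0.141 (adjusted p = 1.73e-05), so the fall for both hairpins together of 0.53 (adjusted p = 0.00335) is the mean of unlike values. The call with SHP2 miR2 held in each fit that left out 1 tumour, without the 4 apart controls (-1.10, adjusted p = 0.00321) and within array set B (-1.05, adjusted p = 0.00658). With a mean of host cell markers as a covariate it was -0.74 (adjusted p = 0.0379). The fall for both together did not hold without the apart controls (-0.52, adjusted p = 0.331). In whole tumours, fewer cells of a type and less RNA per cell cannot be told apart, for ITGA6 and for every value that follows.

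The partners of ITGA6 gave other values. ITGB1, the beta subunit shared by most matrix receptors, read 8.66 to 9.06 in the controls, 8.67 to 9.09 with SHP2 miR1 and 8.87, 9.06 and 8.69 with SHP2 miR2. These ranges overlap throughout, and the changes were -0.03 (95% interval -0.22 to 0.16) and -0.04 (-0.28 to 0.20) with the 2 hairpins. ITGB4, which pairs with α6 alone and carries the hemidesmosome, read 6.14 to 7.38 in the controls, 6.76 to 7.60 with SHP2 miR1 and 6.77, 6.97 and 6.73 with SHP2 miR2. Its change was 0.43 ± 0.181 with SHP2 miR1 (limma adjusted p = 0.197) and 0.06 with SHP2 miR2 (adjusted p = 0.852). ITGB4 followed the array sets. With the set as a block, it passed with SHP2 miR1 (0.38, adjusted p = 0.0263), with SHP2 miR2 (0.40, adjusted p = 0.0353) and with both (0.39, adjusted p = 0.00856). Within each set the apart controls read lowest. In set A, ITGB4 read 7.01 and 6.91 in apart controls 1 and 3 and 7.38 in control 2. In set B it read 6.39 and 6.14 in apart controls 4 and 6 and 6.76 in control 5. Without the 4 apart controls, in a fit with no block, ITGB4 did not pass with either hairpin or with both.

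ITGA3, the alpha subunit of the laminin receptor α3β1, differed between the array sets in the same way. Among SHP2 miR1 tumours it read 8.16 to 8.38 on set A arrays and 7.63 to 7.73 on set B arrays. ITGB4 there read 7.43 to 7.60 (set A) and 6.76 to 6.91 (set B), and LAMA5, a laminin alpha chain of epithelial basement membranes, 7.05 to 7.19 and 6.63 to 6.68. With ITGB5 and LAMC1 these were the 5 members whose SHP2 miR1 tumours of set A all lay above those of set B, as for 15.7% of all genes, and a further 5 (ITGA10, ITGAD, ITGAE, ITGB2 and LAMC3) lay below, as for 13.4%. Without the block, the changes of ITGA3 were 0.06 with SHP2 miR1 and -0.30 with SHP2 miR2, and neither passed. With it, LAMA5 passed with SHP2 miR2 (0.35, limma adjusted p = 0.0231). Among the set B controls LAMA5 read 6.49 and 6.38 in apart controls 4 and 6 and 6.76 in control 5. Without the 4 apart controls, in a fit with no block, LAMA5 did not pass with SHP2 miR2.

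**Figure D2:**
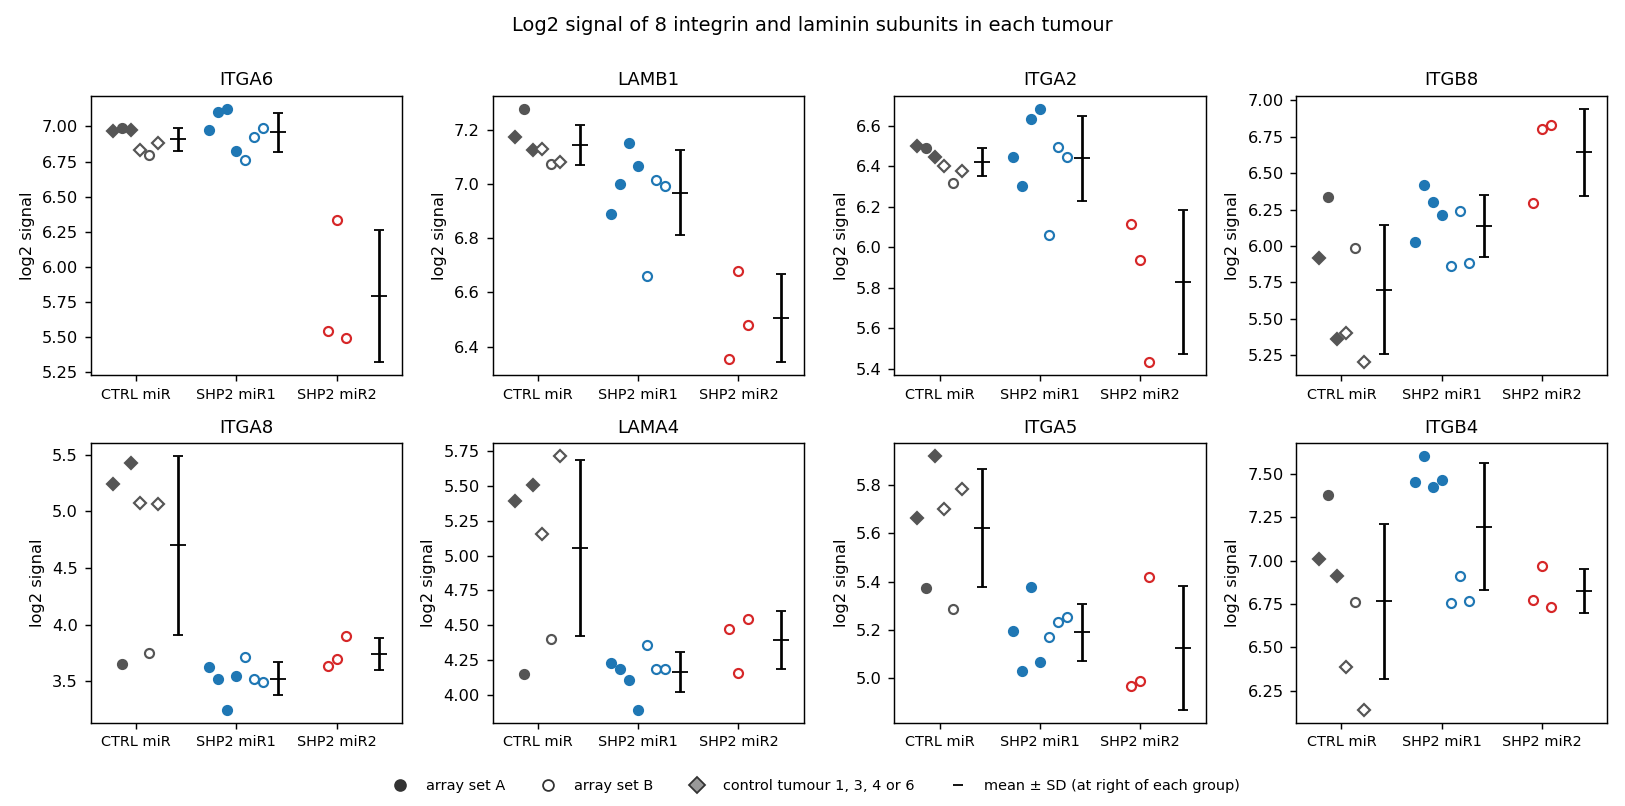
Log2 signal of 8 members in each of the 16 tumours by group, with the mean and SD at the right of each group, filled marks for array set A, open marks for set B and diamonds for control tumours 1, 3, 4 and 6. The SHP2 miR2 tumours lie below the others for ITGA6, while for ITGA8 and LAMA4 the 4 diamonds lie above all other tumours.

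ITGA2, the alpha subunit of the collagen receptor α2β1, was lower with SHP2 miR2 as well. It read 6.32 to 6.50 (median 6.42) in the controls, 6.06 to 6.68 (median 6.45) with SHP2 miR1 and 6.12, 5.94 and 5.43 with SHP2 miR2, which lay below every control but overlapped the SHP2 miR1 range at tumour 1. It fell by 0.59 ± 0.14 with SHP2 miR2 (limma adjusted p = 0.00461), its change with SHP2 miR1 was 0.02, and the hairpins differed by 0.61 ± 0.137 (adjusted p = 0.00458). Tumour 3 decides this call, since without it the change was -0.40 (adjusted p = 0.0639) and the difference between hairpins 0.41 (adjusted p = 0.0724). Without the 4 apart controls the change was -0.57 (adjusted p = 0.107), within set B -0.54 (adjusted p = 0.0583), and with the host marker covariate -0.37 (adjusted p = 0.394).

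Among the laminin chains, LAMB1, the most widespread beta chain, went down with SHP2 miR2. It read 7.07 to 7.28 (median 7.13) in the controls, 6.66 to 7.15 (median 7.001) with SHP2 miR1 and 6.36, 6.68 and 6.48 with SHP2 miR2. All SHP2 miR2 tumours lay below the controls, and only tumour 2 reached into the SHP2 miR1 range. It fell by 0.64 ± 0.108 with SHP2 miR2 (limma adjusted p = 0.000405) and by 0.41 for both hairpins (adjusted p = 0.00299), with a change of -0.18 with SHP2 miR1 that did not pass (adjusted p = 0.279). The hairpins differed by 0.46 ± 0.105 (adjusted p = 0.00527), or by 0.39 (adjusted p = 0.0513) without SHP2 miR2 tumour 1. The fall with SHP2 miR2 held without the 4 controls (-0.67, adjusted p = 0.0162) and within set B (-0.59, adjusted p = 0.0153), and was -0.45 (adjusted p = 0.125) with the host marker covariate. The fall for both and the difference between hairpins did not pass within set B (-0.40, adjusted p = 0.077, and 0.38, adjusted p = 0.111).

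LAMC1, the gamma chain of most laminins, read 6.83 to 7.50 in the controls, 6.93 to 7.39 with SHP2 miR1 and 6.90, 7.44 and 6.97 with SHP2 miR2, and its groups overlapped. It did not pass over all arrays, but with the host marker covariate it was called higher for both hairpins and with SHP2 miR2. LAMB2, the beta chain found in vessels and the neuromuscular junction, read 6.60 to 6.92 in the controls and 6.22 to 6.57 with SHP2 miR1, the 1 member with every SHP2 miR1 tumour below every control, as for 0.555% of all genes. With SHP2 miR2 it read 6.61, 6.62 and 6.43. LAMB2 fell by 0.29 with SHP2 miR1 (limma adjusted p = 0.0498) and by 0.24 for both (adjusted p = 0.0413), at the edge of the threshold. The call was lost in 14 of 16 fits without 1 tumour for SHP2 miR1 (adjusted p = 0.052 to 0.127 in those) and in 9 of 16 for both (0.0516 to 0.117). Without the 4 controls its change with SHP2 miR1 was -0.30 (adjusted p = 0.724).

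LAMA2, the alpha chain of muscle and stromal laminin, was low on every array, below the array median on all 16. It read 3.99 to 4.26 in the controls, 4.004 to 4.37 with SHP2 miR1 and 4.52, 4.54 and 4.54 with SHP2 miR2, above all other tumours. It rose by 0.44 ± 0.0988 with SHP2 miR2 (limma adjusted p = 0.00331) and by 0.23 for both (adjusted p = 0.0364), the latter lost in 8 of 16 fits without 1 tumour (adjusted p = 0.0517 to 0.0943) and under quantile normalization (0.15, adjusted p = 0.108). ITGA9, the alpha subunit of the tenascin and VCAM-1 receptor α9β1, showed the same order. It read 4.73 to 4.95 in the controls, 4.73 to 4.96 with SHP2 miR1 and 5.24, 5.20 and 5.23 with SHP2 miR2, and rose by 0.39 ± 0.0886 (adjusted p = 0.00389), with a change of -0.02 with SHP2 miR1. Without the 4 controls ITGA9 kept its call with SHP2 miR2 (0.49, adjusted p = 0.0275) and LAMA2 did not (0.39, adjusted p = 0.125). Both calls with SHP2 miR2 held in each fit that left out 1 tumour. With the host marker covariate neither passed with SHP2 miR2 (0.44, adjusted p = 0.0682 for ITGA9 and 0.24, adjusted p = 0.39 for LAMA2).

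Low signals as a class read higher in the SHP2 miR2 tumours. Of the 5753 genes below the array median on every array, 15.8% rose and 2.50% fell with SHP2 miR2, while 0.278% rose with SHP2 miR1, and their median change with SHP2 miR2 was 0.20. The 12 members in this class, LAMA2 and ITGA9 among them, had a median change of 0.33. The part of the narrower spread of values in these changes was not tested.

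ITGB8 was the member that rose for both hairpins together apart from LAMA2. Its product pairs with αv, binds latent TGF-β and takes part in its activation. It read 5.20 to 6.34 (median 5.66) in the controls, 5.86 to 6.42 (median 6.21) with SHP2 miR1 and 6.30, 6.80 and 6.83 with SHP2 miR2, so that SHP2 miR2 tumour 1 lay just within the control range. ITGB8 rose by 0.94 ± 0.207 with SHP2 miR2 (limma adjusted p = 0.0029) and by 0.69 ± 0.156 for both (adjusted p = 0.0058). The change with SHP2 miR1 was 0.43 ± 0.163 (adjusted p = 0.141), and the difference between hairpins of -0.51 did not pass (adjusted p = 0.0718), though it did under quantile normalization (-0.62, adjusted p = 0.0422), with the array set as a block (-0.67, adjusted p = 0.0392), without the 4 apart controls (-0.51, adjusted p = 0.0179) and with only the groups compared (adjusted p = 0.0152). Both calls held in each fit without 1 tumour, and the rise with SHP2 miR2 held within set B (1.11, adjusted p = 0.00732). Control tumours 2 and 5 read 6.34 and 5.98, and the apart controls 5.92, 5.36, 5.40 and 5.20. Against controls 2 and 5 alone the change with SHP2 miR2 was 0.48 (adjusted p = 0.178) and for both 0.23 (adjusted p = 0.897). With the host marker covariate the change with SHP2 miR2 was 0.99 (adjusted p = 0.125).

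The other subunits of the αv receptors did not pass against the controls. ITGAV read 7.82 to 7.99 in the controls, 7.71 to 8.06 with SHP2 miR1 and 7.65, 8.12 and 7.73 with SHP2 miR2, with changes of 0.04 (95% interval -0.14 to 0.22) and -0.09 (-0.31 to 0.14). ITGB6, the beta subunit of the epithelial TGF-β activator αvβ6, differed from the controls by -0.09 and -0.21, neither passing. ITGB5, the vitronectin-binding partner of αv, read 7.48 to 8.06 in the controls, 7.74 to 8.04 with SHP2 miR1 and 7.40, 7.46 and 7.46 with SHP2 miR2. The SHP2 miR2 tumours lay below all others, control 4 at 7.48 being the nearest. The set B controls 4, 5 and 6 read 7.48, 7.77 and 7.57. The change against the controls of -0.30 missed the threshold (limma adjusted p = 0.0575). It passed with arrays centred on their medians (-0.39, adjusted p = 0.029), without genes of the lowest mean and with a block for replicate number. It did not pass with the array set as a block, within set B, without the 4 apart controls or with the host marker covariate. ITGB5 was higher with SHP2 miR1 than with SHP2 miR2 by 0.45 ± 0.115 (adjusted p = 0.0101), or 0.43 (adjusted p = 0.0537) without SHP2 miR2 tumour 1. This difference kept its call with the array set as a block and did not pass within set B or with the host marker covariate.

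Another pattern followed the control tumours. ITGA8, the alpha subunit of the nephronectin receptor α8β1 of mesenchymal cells, read 5.24, 5.43, 5.07 and 5.06 in control tumours 1, 3, 4 and 6 and 3.65 and 3.75 in controls 2 and 5. It read 3.25 to 3.71 with SHP2 miR1 and 3.63, 3.69 and 3.90 with SHP2 miR2, so controls 2 and 5 sat with the knockdown tumours. Over all controls ITGA8 fell by 1.18 ± 0.235 with SHP2 miR1 (limma adjusted p = 0.012), by 0.96 ± 0.299 with SHP2 miR2 (adjusted p = 0.0227) and by 1.07 ± 0.226 for both (adjusted p = 0.00411). Against controls 2 and 5 the changes were -0.17, 0.04 and -0.06, and none passed. The SHP2 miR2 call was also lost without SHP2 miR2 tumour 1 or 3 (adjusted p = 0.0615 to 0.0887).

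LAMA4, the alpha chain of vessel laminin, had the same layout. It read 5.39, 5.51, 5.15 and 5.71 in the apart controls, 4.15 and 4.41 in controls 2 and 5, 3.90 to 4.36 with SHP2 miR1 and 4.48, 4.16 and 4.55 with SHP2 miR2. It fell by 0.89 ± 0.196 with SHP2 miR1 (limma adjusted p = 0.0161) and by 0.77 ± 0.188 for both (adjusted p = 0.0085), and without the 4 controls the changes were -0.11 and 0.0009. With SHP2 miR2 its change was -0.66 (adjusted p = 0.0517), and it passed after quantile normalization (-0.80, adjusted p = 0.0253). Without control 3 or control 6 alone the SHP2 miR1 call was lost (-0.80 to -0.76, adjusted p = 0.0501 to 0.0539). LAMA1, the alpha chain of embryonic laminin, fell by 0.56 with SHP2 miR1 (adjusted p = 0.0174) and by 0.40 for both (adjusted p = 0.0277), with -0.10 and 0.06 without the 4 controls. These calls were lost without control 3, 4 or 6 alone (adjusted p = 0.054 to 0.0872 over the fits that lost them), and the latter also without control 1 or SHP2 miR2 tumour 1.

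ITGA5, the alpha subunit of the fibronectin receptor α5β1, fell with each hairpin. It read 5.66, 5.92, 5.70 and 5.78 in the apart controls, 5.37 and 5.28 in controls 2 and 5, 5.03 to 5.38 with SHP2 miR1 and 4.97, 4.99 and 5.42 with SHP2 miR2. Its falls were 0.43 with SHP2 miR1 (limma adjusted p = 0.0273), 0.49 with SHP2 miR2 (adjusted p = 0.0121) and 0.46 for both (adjusted p = 0.00556), and against controls 2 and 5 the changes kept their sign at -0.14, -0.20 and -0.17 without passing. The call for both hairpins held in each fit without 1 tumour. That with SHP2 miR2 was lost without SHP2 miR2 tumour 1 (-0.42, adjusted p = 0.0797), and that with SHP2 miR1 without any of controls 1, 3, 4 and 6 or SHP2 miR1 tumours 2 and 4 (adjusted p = 0.0591 to 0.0874).

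ITGA4, the alpha subunit of the leukocyte and mesenchymal receptor α4β1, fell by 0.61 with SHP2 miR1 (limma adjusted p = 0.0293) and by 0.45 for both (adjusted p = 0.0407). It too read highest in controls 1, 3, 4 and 6 (4.85, 5.13, 4.65 and 4.83), and the change for both was 0.14 without them. The ITGA4 calls were lost in 9 of 16 fits without 1 tumour for SHP2 miR1 (adjusted p = 0.0514 to 0.09) and in 11 of 16 for both (0.0525 to 0.124). In all, 5 members (ITGA4, ITGA5, ITGA8, LAMA1 and LAMA4) were higher in each of those 4 controls than in any of the other 12 tumours, as for 8.76% of all genes, and none was lower in each, as for 1.94%. Those 4 controls lie in both array sets, controls 1 and 3 in set A and 4 and 6 in set B. Why they stand apart was not tested.

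**Figure D3:**
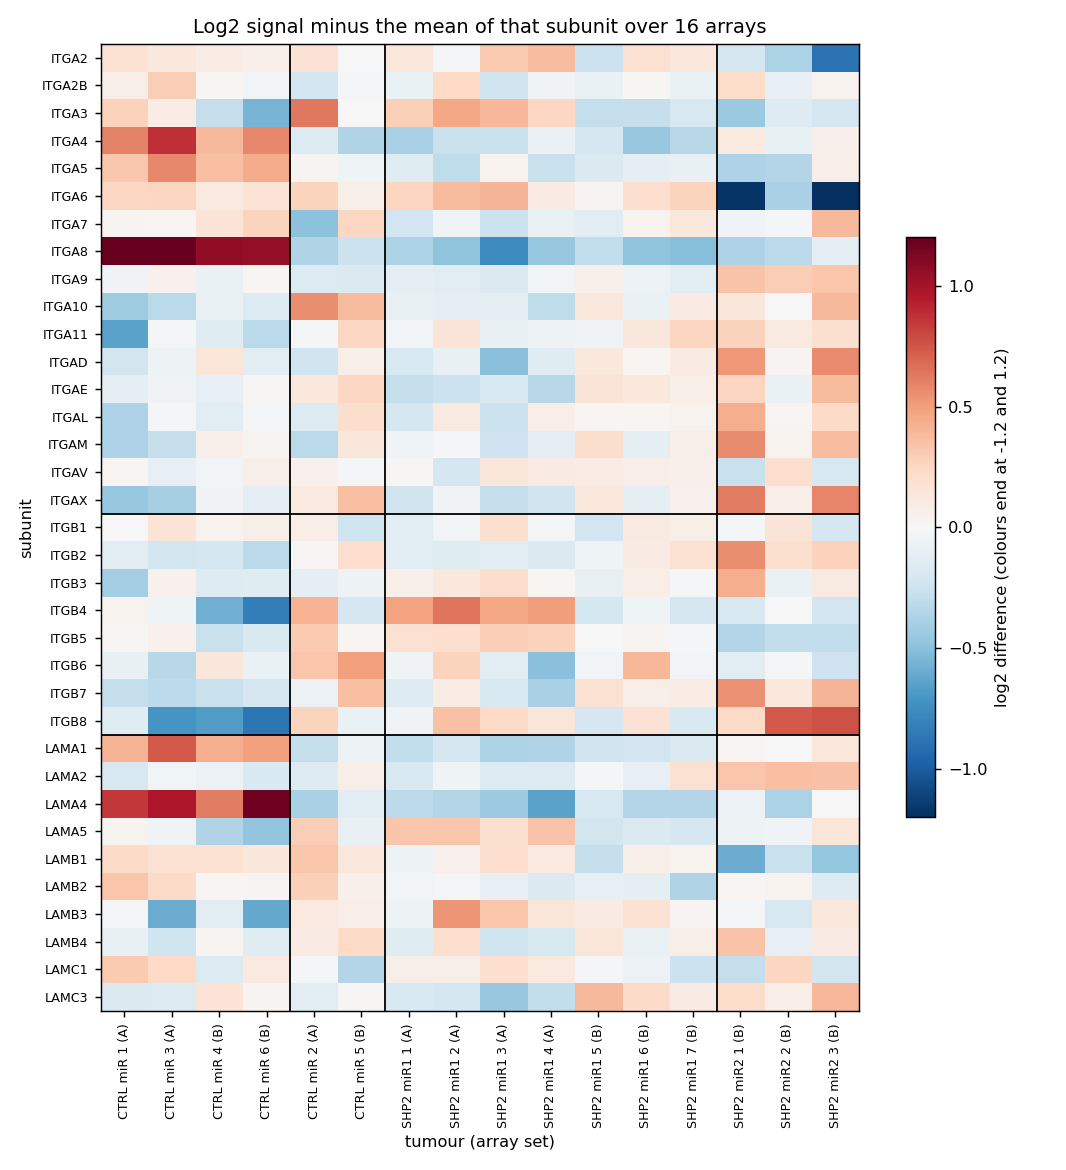
Difference of each member in each tumour from that member's mean over the 16 tumours, in log2 units, with tumours in columns by group and members in rows by family. The columns of control tumours 1, 3, 4 and 6 are high for ITGA8, LAMA4, LAMA1, ITGA4 and ITGA5, and those of the SHP2 miR2 tumours are low for ITGA6.

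Of 6 subunits of the β2 and β7 families (ITGB2, ITGAL, ITGAM, ITGAX, ITGAD and ITGB7), 5 rose with SHP2 miR2. The 6 leave out ITGAE and ITGA4, the alpha partners of β7. Over all genes 11.8% rose with SHP2 miR2, and 15.8% of those below the array median on every array. ITGB2, the common beta subunit of the leukocyte family, read 4.87 to 5.40 (median 5.03) in the controls, 5.02 to 5.38 (median 5.07) with SHP2 miR1 and 5.75, 5.39 and 5.47 with SHP2 miR2, the lowest of which lay just inside the control range. It rose by 0.45 ± 0.124 (limma adjusted p = 0.0111). Its alpha partners ITGAM, ITGAX and ITGAD, which form the complement receptors and a related macrophage receptor, rose by 0.45 (adjusted p = 0.0208), 0.52 (adjusted p = 0.0236) and 0.45 (adjusted p = 0.0261). ITGAL, the alpha subunit of LFA-1, was 0.31 higher without passing (adjusted p = 0.0643). ITGB7, of the gut-homing lymphocyte receptors, rose by 0.49 (adjusted p = 0.022). The changes of these 6 leukocyte integrins with SHP2 miR1 lay between -0.02 and 0.09. The alpha partners of β7, ITGAE and ITGA4, did not pass with SHP2 miR2 (0.17, adjusted p = 0.339, and -0.29, adjusted p = 0.252).

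These calls rest on SHP2 miR2 tumours 1 and 3. For ITGAX the 3 tumours read 5.14, 4.60 and 5.11, with tumour 2 inside the control range of 4.07 to 4.89. All 5 calls were lost without tumour 1, and all but that of ITGB2 without tumour 3, at adjusted p = 0.0872 to 0.158 over those fits. The ITGAD call was also lost without control 1, and that of ITGAX without control 1 or 3 (adjusted p = 0.0506 at the lowest). With the array set as a block ITGB2 kept its call (0.39, adjusted p = 0.0287), while ITGAM (0.31, adjusted p = 0.0598), ITGAX (0.38, adjusted p = 0.0764), ITGAD (0.31, adjusted p = 0.0799) and ITGB7 (0.37, adjusted p = 0.0687) did not. None of the 5 passed without the 4 apart controls or with the mean of host cell markers as a covariate, under which the changes were 0.07 for ITGB2, 0.0046 for ITGAM, -0.0059 for ITGAD, -0.18 for ITGAX and -0.088 for ITGB7. That covariate holds macrophage genes that themselves rose with SHP2 miR2.

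Markers of other cells are given beside these values. The mean of the 6 leukocyte integrins was 5.27, 4.82 and 5.14 in SHP2 miR2 tumours 1, 2 and 3, against 4.43 to 4.96 in the controls. The mean of 12 macrophage and myeloid markers was 5.01, 4.63 and 5.01 against 4.19 to 4.68, and of 8 fibroblast markers 5.60, 5.53 and 5.44 against 4.88 to 5.24. Of the 12 macrophage markers 7 rose with SHP2 miR2 and 7 lay below the array median on every array, among them the complement genes C1QA, C1QB and C1QC. Of 8 lymphocyte markers 2 rose, of 8 fibroblast markers 5, of 8 endothelial markers 1 and of 5 platelet markers 1, and none of these fell. Over all genes 11.8% rose and 18.2% fell with SHP2 miR2, and among genes below the array median on every array 15.8% rose and 2.50% fell. SHP2 miR2 tumours 1 and 3 are also the arrays with the narrowest spread of values, and the part of host cells or of that spread in the rise of the leukocyte integrins was not tested. ITGAM, ITGAX, ITGAD and ITGAL lay below the array median on every array.

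**Figure D4:**
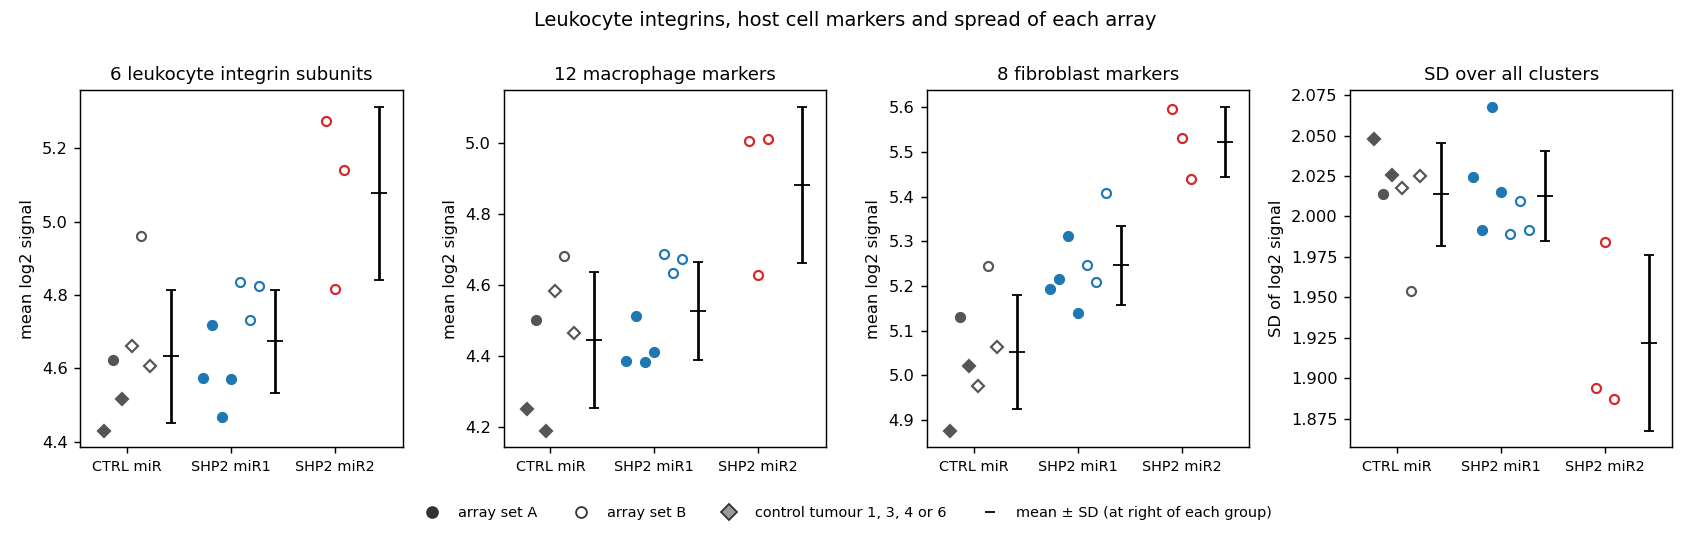
In 4 panels, mean log2 signal in each tumour of the 6 leukocyte integrins, of 12 macrophage markers and of 8 fibroblast markers, and the SD of log2 signal over all probe sets of each array, by group with mean and SD at the right, filled marks for array set A and diamonds for control tumours 1, 3, 4 and 6. SHP2 miR2 tumours 1 and 3 are the highest for the leukocyte integrins, at 5.27 and 5.14, and for the macrophage markers, at 5.01 and 5.01, and have the lowest SDs, at 1.89 and 1.89.

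The hairpins differed for 9 members. ITGA6, ITGA2, LAMB1 and ITGB5 were higher with SHP2 miR1, and ITGA9, LAMA2, ITGAD, ITGAX and ITGB2 were lower with it. The groups did not overlap for ITGA6 and ITGB5 (higher with SHP2 miR1, as for 13.2% of all genes) and for ITGA9, ITGB2, LAMA1 and LAMA2 (lower, as for 6.95%). For ITGA9 the difference was -0.41 ± 0.0865 (limma adjusted p = 0.00325) and for LAMA2 -0.42 (adjusted p = 0.00536). PTPN11 itself was lower with SHP2 miR2, by 0.46 ± 0.12 (adjusted p = 0.0115). The hairpins share their controls, and SHP2 miR2 tumours are all in array set B, so the hairpin and the set are partly confounded. Under quantile normalization ITGB5 and ITGB2 lost the call (0.27 and -0.31, adjusted p = 0.0959 and 0.0648). With the array set as a block ITGAD (-0.32, adjusted p = 0.107), ITGAX (-0.38, adjusted p = 0.111) and ITGB2 (-0.32, adjusted p = 0.095) lost it.

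Inside the cell, 32 adaptors and focal adhesion genes were measured. With SHP2 miR2, 6 rose and 5 fell, with SHP2 miR1 none rose and 2 fell, and for both 3 rose and 4 fell. Over all genes 11.8% rose and 18.2% fell with SHP2 miR2, 1.38% and 3.38% with SHP2 miR1, and 5.52% and 13.1% for both. FERMT2, the kindlin that activates integrins in non-leukocytes, fell by 0.72 for both (limma adjusted p = 0.00329), and its change was -0.23 without the 4 apart controls (adjusted p = 0.887). TNS3, a tensin that links integrins to actin, fell by 0.86 with SHP2 miR2 (adjusted p = 0.000962) and by 0.78 without the 4 controls (adjusted p = 0.0352). FERMT3 is the kindlin of blood cells, and APBB1IP recruits talin and is abundant in leukocytes. For both hairpins together they rose by 0.44 (adjusted p = 0.0115) and 0.25 (adjusted p = 0.0208), with 0.17 and 0.14 without the apart controls. With SHP2 miR1 their changes of 0.25 and 0.10 did not pass (adjusted p = 0.257 and 0.566). With SHP2 miR2 they rose by 0.63 (adjusted p = 0.00501) and 0.40 (adjusted p = 0.00457).

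Outside the cell, 12 basement membrane partners of laminin were measured. For both hairpins together 2 fell, the nidogens NID1 and NID2 that tie laminin to collagen IV, where 13.1% of all genes fell. These 2 also fell with SHP2 miR1, where 3.38% of all genes fell, and none of the 12 passed with SHP2 miR2. For both together NID1 fell by 0.87 (limma adjusted p = 0.0208) and NID2 by 0.74 (adjusted p = 0.0156). Against controls 2 and 5 their changes for both together were 0.18 and 0.08. Of 5 genes of the hemidesmosome and other laminin receptors, 1 fell with SHP2 miR2, where 18.2% of all genes fell, and the other 4 did not pass. This was DST, which links α6β4 to keratin and fell by 0.50 (adjusted p = 0.0142). Its change was -0.23 without the apart controls (adjusted p = 0.475).

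Of 21 other integrin ligands 5 rose and 2 fell with SHP2 miR2, and none passed with SHP2 miR1, where 11.8% and 18.2% of all genes rose and fell with SHP2 miR2. NPNT, nephronectin, rose by 0.99 with SHP2 miR2 (limma adjusted p = 6e-06), and by 0.85 without the 4 controls (adjusted p = 0.00127). TNC, tenascin-C, a ligand of α9β1, fell by 1.04 with SHP2 miR2 (adjusted p = 6.88e-05), and by 1.19 without the 4 controls (adjusted p = 0.000848). FBN1, an RGD protein of microfibrils, fell by 0.56 with SHP2 miR2 (adjusted p = 0.0352), and its change was 0.02 against controls 2 and 5.

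The remaining members did not pass in any comparison. They were ITGA3, ITGA7, ITGA10, ITGA11, ITGA2B, ITGAE, ITGAL, ITGAV, ITGB1, ITGB3, ITGB4, ITGB6, LAMA5, LAMB3, LAMB4, LAMC1 and LAMC3, so that 18 of the 35 passed in at least 1 comparison. How many of all genes passed in at least 1 comparison was not counted, so the 18 have nothing to be set against. On every array 6 members lay above the upper quartile (ITGA3, ITGAV, ITGB1, ITGB5, ITGB6 and LAMC1). On every array 12 members lay below the median, among them ITGB3 of platelets, ITGA7 of muscle and ITGA10 and ITGA11 of cartilage and fibroblasts.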

How the data were processed

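Total RNA (100 ng) of 16 BT474 tumours, 1 array each, was hybridised to Affymetrix HuGene-1_0-st arrays, per the labels. The deposited table holds 1 log2 signal for each of 28869 probe sets (transcript clusters) and array; the log2 scale is read from its values. R 2.10 and oligo 1.8 are named in the submitters' processing notes, and their background correction and normalization are not known. Probe sets with 1 symbol (19310; 1752 have several, 7807 none) were used, with each of 685 genes that have several represented by its brightest one on average; the resulting 18377 genes had no filter on low values.

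A model with the 3 groups was fitted in limma 3.58.1 under R 4.3.3 with lmFit and eBayes and 13 residual degrees of freedom, with Benjamini-Hochberg adjustment over all genes of a comparison and a threshold of 0.05. Intervals are at the 95% level, and the number of arrays limits the precision. Lists of members, adaptors, ligands and cell markers, and the named genes (PTPN11, IRS4, members called in a comparison or among the 8 of highest mean or the 8 of widest range, and up to 4 genes per list with the smallest adjusted p for both hairpins), were chosen with earlier results of these data known. LAMA5 was singled out after its values were seen. Array sets were read from the expression profiles. Alternatives were quantile normalization, median centring, the mean of a gene's probe sets, a filter on low genes, an intensity trend, array weights, a replicate block, the array set as a block or alone, a host marker score as a covariate, only the groups compared, leaving out each tumour and leaving out controls 1, 3, 4 and 6. Promoters are from RefSeq (GRCh38.p14).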

Additional observations from a re-analysis of the deposited data

Results flagged for a closer look

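The controls and the SHP2 miR1 tumours were checked for a tumour far from the rest of its group, for PTPN11 and each member given by value. Of these 50 groups 2 had one, and chance marks about 1 in 20. SHP2 miR2, with 3 tumours, was not checked. ITGAV in SHP2 miR1 tumour 2, at 7.71, lay below the other 6 tumours of its group. ITGB7 in control tumour 5, at 5.51, lay above the other 5 controls.

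In all, 10 differences between the hairpins passed limma's test of the difference itself. Those of ITGA6 (1.16), ITGA2 (0.61), LAMB1 (0.46), ITGB5 (0.45) and PTPN11 (0.46) were positive, that is higher with SHP2 miR1. Those of ITGA9 (-0.41), LAMA2 (-0.42), ITGAD (-0.47), ITGAX (-0.53) and ITGB2 (-0.39) were negative. ITGAD, ITGAX and ITGB2 lost the call without SHP2 miR2 tumour 1 or 3 (adjusted p = 0.0823 to 0.182) and with the array set as a block (adjusted p = 0.095 to 0.111).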

How the results depend on the processing

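With 10 members called for both hairpins, 6 with SHP2 miR1, 13 with SHP2 miR2 and 9 between the hairpins, leaving out 1 tumour gave 6 to 17, 1 to 8, 6 to 18 and 4 to 12. The share of all genes called in these fits was not counted, so moves of the members and of all genes cannot be told apart. The counts moved by over 1.5 times without controls 1, 3 or 5 (both hairpins: 6, 6 and 17), controls 1, 3, 4, 6 or SHP2 miR1 tumour 2 (SHP2 miR1: 3, 1, 2, 1 and 3), and SHP2 miR2 tumours 1 or 3 (SHP2 miR2: 6 and 7; between hairpins: 4 and 5). Of 38 calls 15 held in all 16 such fits. Dropping genes of the lowest mean, which leaves 19 members, the counts were 6, 2 and 8 for both, SHP2 miR1 and SHP2 miR2 (24.1%, 4.92% and 36.9% of the genes left). Array weights gave 19 for both and 14 between hairpins (38.3% and 39.1% of all genes), and only the groups compared gave 14 between hairpins (29.2% of all genes). Set B alone gave 1, 0, 5 and 1, and set A alone gave 0 with SHP2 miR1. Without controls 1, 3, 4 and 6 the counts were 0, 0, 3 and 14, with changes that turned sign for ITGA4 (both, 0.14), ITGA8 (SHP2 miR2, 0.045), LAMA1 (both, 0.061) and LAMA4 (both, 0.0009). The host score as a covariate gave 1, 2 and 2 for both, SHP2 miR2 and between hairpins, and turned ITGAD (-0.0059), ITGAX (-0.18) and ITGB7 (-0.088) with SHP2 miR2, ITGAX between hairpins (0.0044) and LAMC1 (0.32 for both, 0.51 with SHP2 miR2, both passing). The cause of these moves was not tested. The mean of a gene's probe sets, an intensity trend, quantile normalization and median centring moved no count by over 1.5 times, and PTPN11 fell by a like amount without any 1 tumour (-1.51 to -1.42 with SHP2 miR1, -1.97 to -1.88 with SHP2 miR2). Replicate numbers are shared between groups, and deviations of controls and SHP2 miR1 tumours with one number correlated by 0.21 to 0.37 in 5 of 6 pairs and by -0.30 in pair 4, whose arrays lie in different sets. Pairs with a SHP2 miR2 tumour gave -0.42 to 0.022. The labels tie no tumours together by number, so no pairing was used; with the replicate block the counts were 12, 6, 17 and 15 (21.1%, 4.05%, 39.5% and 36.9% of all genes). Median centring moved the median change of all genes between hairpins from -0.0042 to 0.11, and no called member turned sign under it or under quantile normalization. A sign that differed where neither fit called the member is not counted as turned.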
